A study of Homo sapiens with 6 samples.

Results

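Annexins are calcium-regulated proteins that bind acidic membrane phospholipids. The expression of 10 annexin genes (*ANXA1*, *ANXA2*, *ANXA3*, *ANXA4*, *ANXA5*, *ANXA6*, *ANXA7*, *ANXA9*, *ANXA10* and *ANXA11*), out of 46427 genes in the count table, was compared between parental and *ZKSCAN3*-deficient colorectal cancer cells. The genes were taken by their symbols, and the family was selected on the read counts of *ANXA10*, which were strongly higher in the deficient cells. The values of *ANXA10* in this comparison are therefore a description and carry no test, whereas the other 9 members entered through their family name. HCT116 is a human colorectal carcinoma cell line. The parental, unedited HCT116 cells (*ZK3*-WT, wild type for *ZKSCAN3*) were set against *ZK3*-KO cells. In these, CRISPR/Cas9 was directed at the first exon of *ZKSCAN3*, and both alleles were mutated. Cells of both genotypes were grown in DMEM with fetal bovine serum and the labels name no other treatment. The *ZK3*-KO cells are a clonal line selected with puromycin after editing, so the loss of *ZKSCAN3* and any other difference between this clone and the parental population cannot be told apart. Polyadenylated RNA was sequenced from 3 libraries of each genotype, which the submitters describe as biological triplicates. The p-values measure the spread between these libraries.

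An annexin consists of a conserved core of repeated alpha-helical domains, which docks onto membranes that expose phosphatidylserine when calcium rises, and an amino-terminal tail that differs between members and carries the binding sites for partners such as S100 proteins. Through these contacts annexins take part in membrane repair, vesicle traffic, cell surface plasmin generation and the handling of exposed phosphatidylserine. ANXA10 is an unusual member, in which most of the calcium-binding sites of the core are changed. It is normally made in gastric epithelium and is used as a tissue marker of sessile serrated lesions of the colon.

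Between 60827060 and 69739215 reads were counted per library, and all 10 members passed the filter on low counts, together with 18366 genes in all. The quasi-likelihood test of edgeR called 376 of them (2.05%) at an FDR of 0.05, 150 (0.817%) with higher and 226 (1.23%) with lower counts in *ZK3*-KO cells. *ZK3*-KO replicate 3 stood apart from the other *ZK3*-KO libraries. Its log2 CPM (CPM being counts scaled to library sizes that were normalized by TMM) correlated across genes with *ZK3*-KO replicates 1 and 2 at 0.963 and 0.950, where *ZK3*-KO replicates 1 and 2 correlated with each other at 0.985 and the *ZK3*-WT pairs at 0.983 to 0.989. Without it, 2858 of 18872 genes (15.1%) passed the threshold, and 6107 (32.4%) an unadjusted p of 0.05, where all 6 libraries gave 3371 of 18366 (18.4%). The mRNA of *ZKSCAN3* itself was at 23.8 ± 4.17 CPM (SD, n = 3) in *ZK3*-WT and 21.3 ± 6.68 CPM in *ZK3*-KO cells (log2 fold change -0.16, SE 0.27, FDR 0.797). This does not check the edit, since a mutation in the first exon need not lower the mRNA. The summed CPM of 9 colon epithelial markers ranged from 2951 to 3743 in *ZK3*-WT and from 2741 to 5448 in *ZK3*-KO libraries. Most of this sum was *KRT8*, *KRT18* and *KRT19*, with means of 1479, 799 and 714 CPM in *ZK3*-WT cells. In the same list *KRT20* had means of 1.39 CPM in *ZK3*-WT and 0.843 CPM in *ZK3*-KO cells. *CDX1* was at 0 reads in every library and *VIL1* had between 0 and 7 reads. The sum of 6 fibroblast markers ranged from 44.8 to 57.0 and from 32.8 to 99.3 CPM, nearly all of it *COL1A1*. The sum of 7 leukocyte and endothelial markers ranged from 4.12 to 11.9 and from 2.15 to 9.55 CPM, with *PTPRC* and *CD3E* at 0 reads in every library.

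*ANXA10* (NCBI Gene 11199) lies at chr4:169013688-169108887 of GRCh37 on the plus strand, and its 3 annotated transcripts have 12, 7 and 3 exons. In *ZK3*-WT replicates 1, 2 and 3 it had 22, 22 and 28 reads, and in *ZK3*-KO replicates 1, 2 and 3 it had 1812, 2601 and 2223 reads. These counts correspond to 0.350, 0.314 and 0.4005 CPM in the parental libraries, and to 28.1, 37.5 and 36.0 CPM in the *ZK3*-KO libraries. The parental counts were low at this depth, every *ZK3*-KO library was far above every *ZK3*-WT library, and replicate 3 lay between the other *ZK3*-KO libraries. The mean was 0.355 ± 0.0435 CPM in *ZK3*-WT and 33.9 ± 5.03 CPM in *ZK3*-KO cells (SD, n = 3 each), a 95.5-fold difference of means, and the fitted log2 fold change was 6.57 with an SE of 0.23. With each library left out in turn the log2 fold change stayed between 6.49 and 6.69. These values describe the counts that the selection used and are no test of them. In RNA from whole cultures, more cells with the transcript and more transcript per cell cannot be told apart. The gene is overlapped on the opposite strand by 2 lncRNAs (ENSG00000248601 and ENSG00000287188). The libraries were stranded, but the strand setting of the counting was not given in the sources used here, so reads of these RNAs and of *ANXA10* cannot be told apart.

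**Figure D1:**
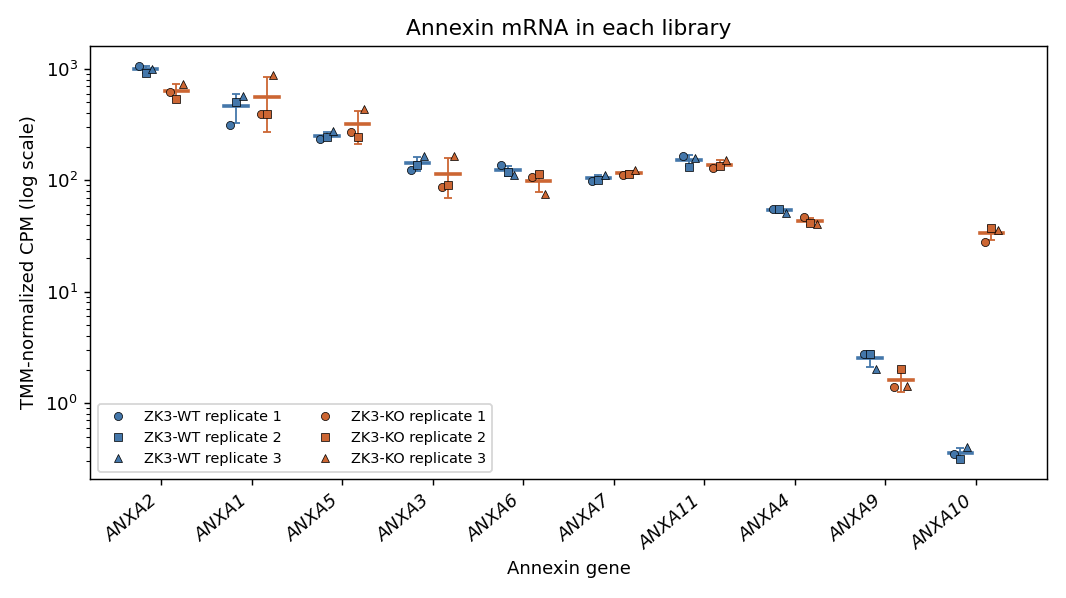
TMM-normalized CPM of the 10 annexin genes on a log axis. Points are single libraries, thick lines are means and thin bars are 1 SD for n = 3 per genotype. The *ZK3*-KO libraries of *ANXA10* lie between 28.1 and 37.5 CPM and its *ZK3*-WT libraries between 0.314 and 0.4005 CPM. The genotypes lie closer together for every other member, of which *ANXA2* has means of 996 CPM in *ZK3*-WT and 630 CPM in *ZK3*-KO cells.

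The windows of 250 bases before the RefSeq starts of *ANXA10*, *ANXA1* and *ANXA2* are shown because they hold the same TATAAA word at about the same distance from the start in 3 members whose levels in the parental cells were the lowest and the highest of the family. Sequences came from RefSeq (GRCh38.p14) and each was found once in GRCh37, at chr4:169013438-169013687 (plus strand) for *ANXA10*, chr9:75766531-75766780 (plus strand) for *ANXA1* and chr15:60690186-60690435 (minus strand) for *ANXA2*. The RefSeq start of *ANXA2* lies inside the span that the GRCh37 annotation gives for the gene, which reaches farther upstream. The sequences are written from 5′ to 3′ and end at the base before the start. Capitals mark the word TATAAA and CG pairs.
ANXA10: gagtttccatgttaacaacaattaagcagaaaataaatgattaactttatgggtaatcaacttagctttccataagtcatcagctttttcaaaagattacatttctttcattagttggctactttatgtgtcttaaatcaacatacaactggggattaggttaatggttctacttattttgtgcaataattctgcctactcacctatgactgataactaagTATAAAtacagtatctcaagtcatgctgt
ANXA1: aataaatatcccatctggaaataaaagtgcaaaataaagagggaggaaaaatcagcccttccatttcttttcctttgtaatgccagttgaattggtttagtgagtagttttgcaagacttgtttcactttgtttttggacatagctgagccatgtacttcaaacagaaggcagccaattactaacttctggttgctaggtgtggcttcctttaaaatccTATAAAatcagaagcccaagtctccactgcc
ANXA2: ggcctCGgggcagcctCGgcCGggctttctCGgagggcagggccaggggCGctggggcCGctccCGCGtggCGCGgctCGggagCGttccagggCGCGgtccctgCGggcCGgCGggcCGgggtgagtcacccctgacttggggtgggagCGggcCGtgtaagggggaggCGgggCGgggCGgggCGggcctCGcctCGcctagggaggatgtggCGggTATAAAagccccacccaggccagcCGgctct

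TATAAA begins 29 bases before the start in *ANXA10* and 31 bases before it in both *ANXA1* and *ANXA2*. The window of *ANXA10* has no CG pair and a GC content of 31.2%, and that of *ANXA1* has no CG pair and 38.4%. The window of *ANXA2* has 28 CG pairs and 78% GC. The table held 14 windows for the 10 member genes, and the remaining *ANXA11* entry with the word carries it 61 bases before its start. The windows of *ANXA3*, *ANXA5* and *ANXA7* hold 18, 31 and 20 CG pairs, and that of *ANXA9* holds 4. Over 35116 windows of 27305 genes, TATAAA was present on either strand in 10.7%, no CG pair in 6.06%, and TATAAA without any CG pair in 1.83%. These shares count the word anywhere in the window, and the share with it 29 to 31 bases before the start was not counted. The median window had 11 CG pairs and 58% GC. TATAAA and CG cannot overlap, and a match describes the letters only.

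Of the other 9 annexins, edgeR's test called none at an FDR of 0.05, beside 2.05% of all tested genes (and none of the 9, beside 2.51%, with the replicate number as a block). At an unadjusted p of 0.05, 3 of the 9 passed (*ANXA2*, *ANXA4* and *ANXA9*, all lower in *ZK3*-KO cells), beside 18.4% of all tested genes. The fitted log2 fold change was above 0 for 3 and below 0 for 6, with a median of -0.31, where the median over all tested genes was 0.02. The libraries of the genotypes did not overlap for 4 of the 9, beside 26.6% of all tested genes. DESeq2 called 1 of the 9 (*ANXA2*), beside 8.2% of all tested genes, and edgeR without *ZK3*-KO replicate 3 called 2 (*ANXA2* and *ANXA3*), beside 15.1%. In that fit the same 2 were the ones below an unadjusted p of 0.05, beside 32.4% of all tested genes, and 2 of the 9 were above 0 and 7 below it.

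*ANXA2* (chr15:60639333-60695082, minus strand) encodes the annexin that pairs with S100A10 at the cell surface and binds plasminogen activator there. In the parental libraries 1, 2 and 3 it was at 1069, 918 and 1000 CPM, and the *ZK3*-KO libraries had 622, 536 and 730 CPM. Every *ZK3*-KO library was below every *ZK3*-WT library. The mean went from 996 ± 75.5 to 630 ± 97.5 CPM (SD, n = 3 each), or 63.2% of the parental level. The log2 fold change of -0.66 (SE 0.17, 95% interval -1.07 to -0.25) did not pass with an FDR of 0.113 in edgeR's test. It passed in 2 of the 14 alternatives, DESeq2 (FDR 0.00738) and edgeR without *ZK3*-KO replicate 3, where it was -0.78 (FDR 0.00763). The FDR reached 0.356 among the alternatives, and the fold change kept its sign in all 14.

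*ANXA1* (chr9:75766781-75785309, plus strand) encodes a glucocorticoid-induced annexin whose secreted form acts on formyl peptide receptors. It was at 311, 500 and 577 CPM in the *ZK3*-WT libraries and at 396, 393 and 890 CPM in the *ZK3*-KO libraries. *ZK3*-KO replicate 3 was 2.26 times the mean of the other *ZK3*-KO libraries, which lay inside the parental range. The log2 fold change of 0.27 (SE 0.38, FDR 0.750) turned to -0.23 (FDR 0.540) without replicate 3, so no direction can be given for this gene.

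*ANXA5* (chr4:122589101-122618150, minus strand) encodes the annexin used as a stain for exposed phosphatidylserine. Its libraries were at 234, 243 and 275 CPM in *ZK3*-WT and 271, 245 and 437 CPM in *ZK3*-KO cells (log2 fold change 0.34, SE 0.24, FDR 0.495), again with the highest value in *ZK3*-KO replicate 3. *ANXA3* (chr4:79472901-79531605, plus strand), an annexin abundant in neutrophil granule membranes, was at 125, 136 and 164 CPM in *ZK3*-WT and at 86.6, 90.6 and 165 CPM in *ZK3*-KO libraries. *ZK3*-KO replicates 1 and 2 lay below all parental libraries and replicate 3 at the top of them. Its log2 fold change was -0.31 (SE 0.27, FDR 0.592) with all libraries, and it fell by 0.67 on the log2 scale (FDR 0.0215) without *ZK3*-KO replicate 3. Both genes share chromosome 4 with *ANXA10*.

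*ANXA4* (chr2:69871557-70054244, plus strand), an annexin of epithelial membranes, was at 55.4, 55.8 and 50.6 CPM in *ZK3*-WT and 46.5, 41.6 and 40.2 CPM in *ZK3*-KO libraries. The groups did not overlap, and the log2 fold change was -0.33 (SE 0.13, unadjusted p 0.0399, FDR 0.247 in edgeR's test). *ANXA9* (chr1:150954725-150968110, plus strand), whose calcium-binding sites are also changed, was low in every library, at 2.78, 2.74 and 2.03 CPM in *ZK3*-WT and 1.38, 2.00 and 1.42 CPM in *ZK3*-KO cells. Its mean was 63.7% of the parental level, with a log2 fold change of -0.65 (SE 0.28, unadjusted p 0.0492, FDR 0.270 in edgeR's test). The lowest parental library and the highest *ZK3*-KO library of *ANXA9* differed by little (2.03 and 2.00 CPM).

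The log2 fold changes of *ANXA6*, *ANXA7* and *ANXA11* had 95% intervals that included 0. *ANXA6* (chr5:150480267-150537376, minus strand), which has a duplicated core, was at 123 ± 13.0 CPM in *ZK3*-WT and 98.8 ± 21.1 CPM in *ZK3*-KO cells (SD, n = 3 each). Its lowest value, 74.98 CPM, was that of *ZK3*-KO replicate 3, and its FDR was 0.438. *ANXA7* (chr10:75134859-75173834, minus strand), an annexin of secretory granule fusion, was at 104 ± 7.16 and 116 ± 5.62 CPM. The groups of *ANXA7* missed each other narrowly, with 112.49 CPM in the highest parental and 112.53 CPM in the lowest *ZK3*-KO library, and its log2 fold change of 0.16 (SE 0.13) had an FDR of 0.575. *ANXA11* (chr10:81910645-81965328, minus strand), which tethers RNA granules to lysosomes, was at 151 ± 17.7 and 139 ± 12.3 CPM, with a log2 fold change of -0.12 and a 95% interval from -0.48 to 0.24.

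**Figure D2:**
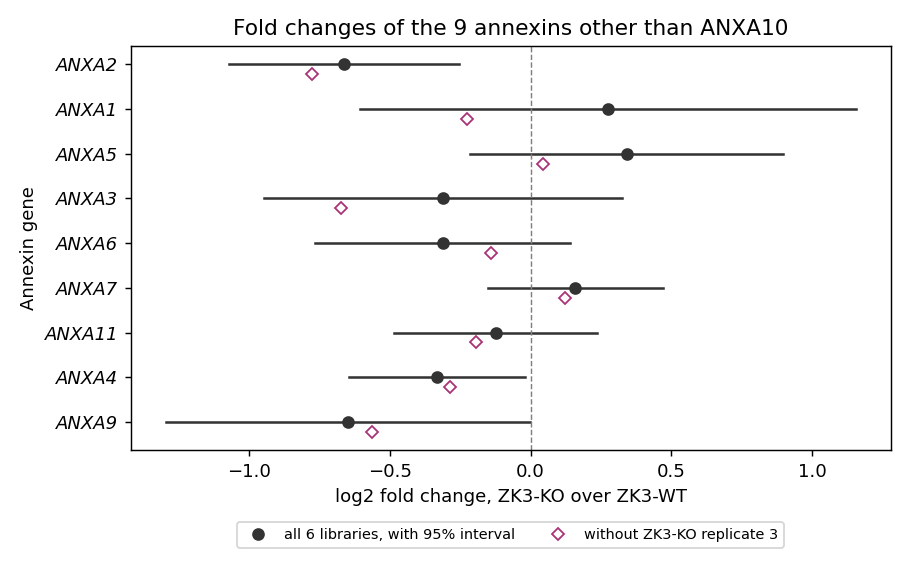
Fitted log2 fold changes (*ZK3*-KO over *ZK3*-WT, edgeR) of the 9 annexins other than *ANXA10*. Filled points with lines are estimates and 95% intervals over 6 libraries, and open diamonds are estimates without *ZK3*-KO replicate 3. The interval of *ANXA2* runs from -1.07 to -0.25, and the estimate for *ANXA1* changes sign between 0.27 and -0.23.

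Levels were compared between genes on the authors' TPM scale, which accounts for transcript length. In *ZK3*-WT cells the order was *ANXA2* (984 ± 73.9 TPM), *ANXA1* (697 ± 209), *ANXA5* (324 ± 26.9), *ANXA3* (210 ± 28.3), *ANXA6* (89.9 ± 8.84), *ANXA7* (88.1 ± 4.70), *ANXA11* (52.7 ± 4.66), *ANXA4* (38.0 ± 1.82), *ANXA9* (3.21 ± 0.571) and *ANXA10* (0.498 ± 0.0502 TPM; SD, n = 3 each). Of neighbours in this order, only *ANXA6* and *ANXA7* overlapped between libraries. *ANXA10* was the lowest of the 10 in every parental library, below *ANXA9*. In the *ZK3*-KO libraries it was at 40.7, 54.1 and 41.7 TPM and ranked 8, 7 and 7. Its mean of 45.5 ± 7.51 TPM there was within the spread of *ANXA11* (45.6 ± 4.89 TPM) and above all libraries of *ANXA4* (29.6 ± 5.57 TPM).

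The transcripts of *ANXA1*, *ANXA2* and *ANXA5* together made up 80.6% ± 0.952 of the summed TPM of the 10 members in *ZK3*-WT and 80.4% ± 2.35 in *ZK3*-KO cells (SD, n = 3 each). The family sum was 2487 ± 220 and 2231 ± 219 TPM, and *ANXA10* was a small part of it in both, 0.0201% ± 0.00124 of the sum in *ZK3*-WT and 2.07% ± 0.510 in *ZK3*-KO cells. The ratio of *ANXA1* to *ANXA2* in TPM was 0.438, 0.851 and 0.862 in the *ZK3*-WT libraries. It was 0.719, 0.830 and 1.97 in the *ZK3*-KO libraries, where replicate 3 alone had more *ANXA1* than *ANXA2*.

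**Figure D3:**
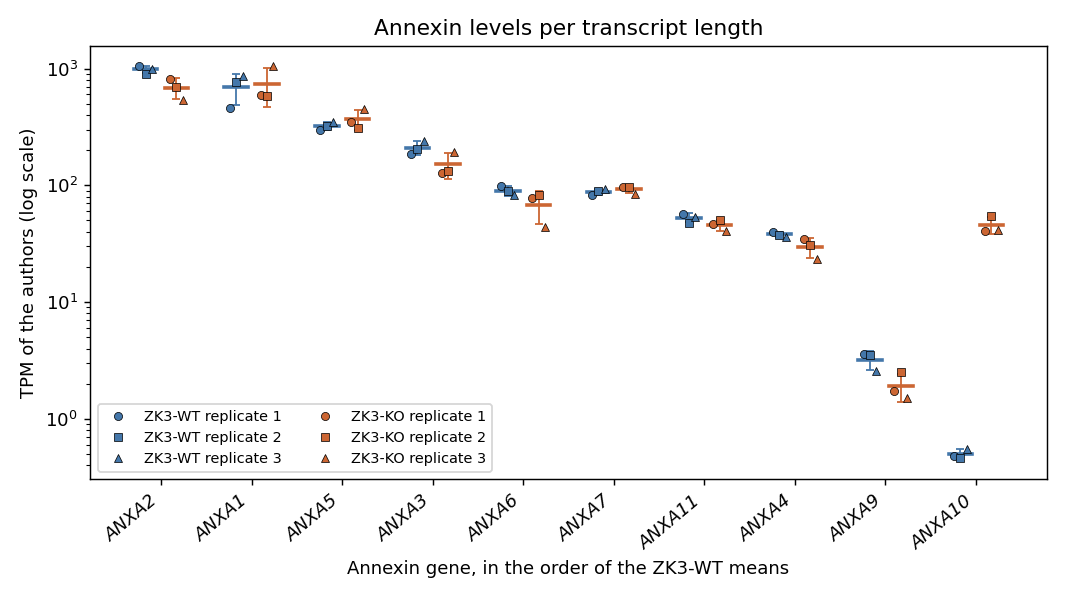
TPM of the authors for the 10 annexin genes on a log axis, in the order of the *ZK3*-WT means. Points are libraries, thick lines are means and thin bars are 1 SD for n = 3 per genotype. *ANXA10* moves from 0.498 TPM, below *ANXA9*, to 45.5 TPM, beside *ANXA11*.

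The TPM of *ANXA2* ranked the *ZK3*-KO libraries differently from its read counts. It was 1051, 905 and 997 TPM in *ZK3*-WT replicates 1, 2 and 3 and 817, 702 and 539 TPM in *ZK3*-KO replicates 1, 2 and 3, so that replicate 3 was the lowest *ZK3*-KO library in TPM and the highest in CPM. The transcript length that the deposited FPKM imply for *ANXA2*, CPM on library totals divided by FPKM, was 2.36, 2.38 and 2.33 kb in *ZK3*-WT libraries. It was 1.74, 1.75 and 2.53 kb in *ZK3*-KO replicates 1, 2 and 3. The highest was 1.45 times the lowest for *ANXA2* and between 1.03 and 1.15 times for each of the other 9 members. The length is a quantity of the authors' estimate and not a measured transcript, and transcript-level counts were not analysed here. The ratio of *ANXA1* to *ANXA2* in TPM given above depends on this length. In *ZK3*-KO replicate 3, where that ratio was 1.97, *ANXA1* was at 890 CPM and *ANXA2* at 730 CPM.

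Of 7 further annexin genes and pseudogenes, 6 were in the table and 1 passed the filter on low counts. This was *ANXA2P2*, a processed pseudogene of *ANXA2*, with 48, 37 and 50 reads in *ZK3*-WT and 31, 44 and 27 reads in *ZK3*-KO libraries (log2 fold change -0.37, FDR 0.610). *ANXA8* had between 2 and 10 reads and its near copy *ANXA8L1* between 0 and 7 reads in every library. *ANXA2P1* had at most 3 reads, and *ANXA2P3* and *ANXA13*, the intestinal annexin, had 0 reads in every library. Reads of *ANXA2* and its pseudogenes, and of *ANXA8* and *ANXA8L1*, can be assigned to the wrong copy, so these low values are uncertain.

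S100 proteins and related EF-hand proteins are the calcium-binding partners that attach to annexin tails. Of 10 such genes 6 were tested, and 1 passed (1 of 6, beside 2.05% of all tested genes). *S100A4*, a partner of ANXA2 known from motile and metastatic cells, was at 116, 118 and 94.6 CPM in *ZK3*-WT and at 4.22, 10.2 and 9.18 CPM in *ZK3*-KO libraries. The groups were far apart, and the mean fell from 110 ± 13.0 to 7.87 ± 3.20 CPM (SD, n = 3 each). Its log2 fold change of -3.80 (SE 0.34, FDR 0.00469) passed under all 14 alternatives, between -3.49 and -4.03. The median of the 6 was 0.11. *S100A10*, the obligate partner of ANXA2 on the cell surface, was at 76.8, 51.4 and 63.4 CPM in *ZK3*-WT and 80.5, 61.5 and 79.2 CPM in *ZK3*-KO libraries (log2 fold change 0.21, SE 0.19, FDR 0.619). *S100A11*, the partner of ANXA1, had the highest fold change of the list, 0.50 (SE 0.47, FDR 0.623), with 242 CPM in *ZK3*-KO replicate 3 and 88.6 and 62.3 CPM in replicates 1 and 2, and it turned to -0.29 (FDR 0.338) without replicate 3. *S100A8*, *S100A9*, *S100A12* and *S100B* had 0 reads in every library. Without *ZK3*-KO replicate 3, 2 of the 6 passed, beside 15.1% of all tested genes, the other being *S100A6* at -0.65 (FDR 0.0251), and the median was -0.09.

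At the cell surface ANXA2 takes part in plasmin generation and ANXA1 in signalling through formyl peptide receptors. Of the 10 genes reported 6 were tested. None of the 6 passed in edgeR's test (beside 2.05% of all tested genes), at an unadjusted p of 0.05 (beside 18.4%) or in DESeq2 (beside 8.2%). Their median log2 fold change was 0.30, and no direction is drawn from it because the list is not complete. Without *ZK3*-KO replicate 3 none of the 6 passed an FDR of 0.05, beside 15.1% of all tested genes, and 2 passed an unadjusted p of 0.05, beside 32.4%. These were *ANXA2R* at 1.04 (FDR 0.129) and *PLAU*, a plasminogen activator, at -0.95 (FDR 0.0599), and the median was 0.15. The range ran from 0.16 (SE 0.19, FDR 0.702) for *PLGRKT*, a plasminogen receptor, to 0.88 (SE 0.42, FDR 0.316) for *ANXA2R*, a proposed ANXA2 receptor. *PLGRKT* was at 11.3, 10.6 and 12.3 CPM in *ZK3*-WT and 12.6, 10.5 and 15.0 CPM in *ZK3*-KO libraries, which overlapped. Plasminogen (*PLG*) and *FPR3* had 0 reads in every library, and *FPR2* at most 2. *FPR1*, the formyl peptide receptor gene with the most reads, had 15, 9 and 4 reads in *ZK3*-WT and 0, 4 and 0 reads in *ZK3*-KO libraries.

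Membrane repair brings annexins together with ferlins, calpains, caveolae and the ESCRT machinery. All 17 of these genes were tested and none passed in edgeR's test (beside 2.05% of all tested genes), while 2 passed an unadjusted p of 0.05 (beside 18.4%). The median was 0.04, with 9 above and 8 below 0, and without *ZK3*-KO replicate 3 it was -0.13, with 7 above and 10 below. The range ran from -0.71 (SE 0.17, FDR 0.0905) for *CAPN1*, a calcium-activated protease, to 0.37 (FDR 0.569) for *SMPD1*, the acid sphingomyelinase, which was at 0.02 without that library. *CAPN1* was at 247, 178 and 188 CPM in *ZK3*-WT and 121, 121 and 132 CPM in *ZK3*-KO libraries, without overlap. The other gene below an unadjusted p of 0.05 was *MYOF*, a ferlin, named after its values were seen, at -0.62 (FDR 0.0961). DESeq2 called 2 of the 17, beside 8.2% of all tested genes. Without *ZK3*-KO replicate 3, 3 passed (*CAPN1* at -0.74, FDR 0.0188, *MYOF* at -0.61, FDR 0.0227, and *DYSF*, the ferlin dysferlin, at -1.93, FDR 0.00296), beside 15.1% of all tested genes, and 5 passed an unadjusted p of 0.05, beside 32.4%.

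Phosphatidylserine, the lipid that annexins dock onto, is exposed by scramblases and returned by flippases. Of 13 genes 11 were tested. None of the 11 passed in edgeR's test (beside 2.05% of all tested genes) or in DESeq2 (beside 8.2%), while 4 passed an unadjusted p of 0.05 (beside 18.4%). Without *ZK3*-KO replicate 3 this count was 2, beside 32.4%. Of the 11, 10 had a log2 fold change below 0 and 1 above 0, with a median of -0.20 against 0.02 over all tested genes. Without that library 7 were below and 4 above 0, with a median of -0.26 against -0.02. The range ran from -0.57 (SE 0.35, FDR 0.439) for *PLSCR4*, a phospholipid scramblase family member, to 0.70 (SE 0.27, FDR 0.237) for *ATP8B1*, a flippase. *ATP8B1* was at 20.7, 22.8 and 14.2 CPM in *ZK3*-WT and 32.5, 39.8 and 21.4 CPM in *ZK3*-KO libraries, and it passed at 0.92 (FDR 0.0224) without *ZK3*-KO replicate 3, as 1 of the 11, beside 15.1% of all tested genes.

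The genes that accompany *ANXA10* in gastric epithelium and serrated lesions mostly had few or no reads, with *GATA6*, a transcription factor of gut epithelium, as the exception. Of 16 such genes 3 were tested. None of the 3 passed in edgeR's test (beside 2.05% of all tested genes), at an unadjusted p of 0.05 (beside 18.4%) or in DESeq2 (beside 8.2%). With 3 tested genes and such shares, no calls would be usual, and nothing is drawn from this count. The range ran from -0.65 (FDR 0.690) for *SOX2*, a stomach transcription factor, to 0.63 (FDR 0.716) for *VSIG1*, a gastric junction protein. *VSIG1* had 17, 11 and 8 reads in *ZK3*-WT and 15, 4 and 34 reads in *ZK3*-KO libraries, and it was at -0.31 without *ZK3*-KO replicate 3. *GATA6* was at 11.1, 8.07 and 7.71 CPM in *ZK3*-WT and 7.27, 8.13 and 7.06 CPM in *ZK3*-KO libraries (log2 fold change -0.26, FDR 0.550). The gastric mucin *MUC5AC*, the trefoil factors *TFF1* and *TFF2*, the gastrokines *GKN1* and *GKN2*, and *CLDN18*, *TM4SF4* and *SOX21* had 0 reads in every library of both genotypes. *AQP5* had 0, 11 and 16 reads in *ZK3*-WT and 0 in every *ZK3*-KO library, and without *ZK3*-KO replicate 3 it passed the filter on low counts as a further tested gene with an unadjusted p of 0.0266 and an FDR of 0.105. It was 1 of 4 tested genes of the list below an unadjusted p of 0.05 there, beside 32.4% of all tested genes. *CTSE*, a gastric protease, had 5, 3 and 8 against 0, 0 and 2 reads. *MUC17* had 4, 0 and 0 against 9, 8 and 0 reads, and *MUC6* and *GATA4* had at most 4.

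**Figure D4:**
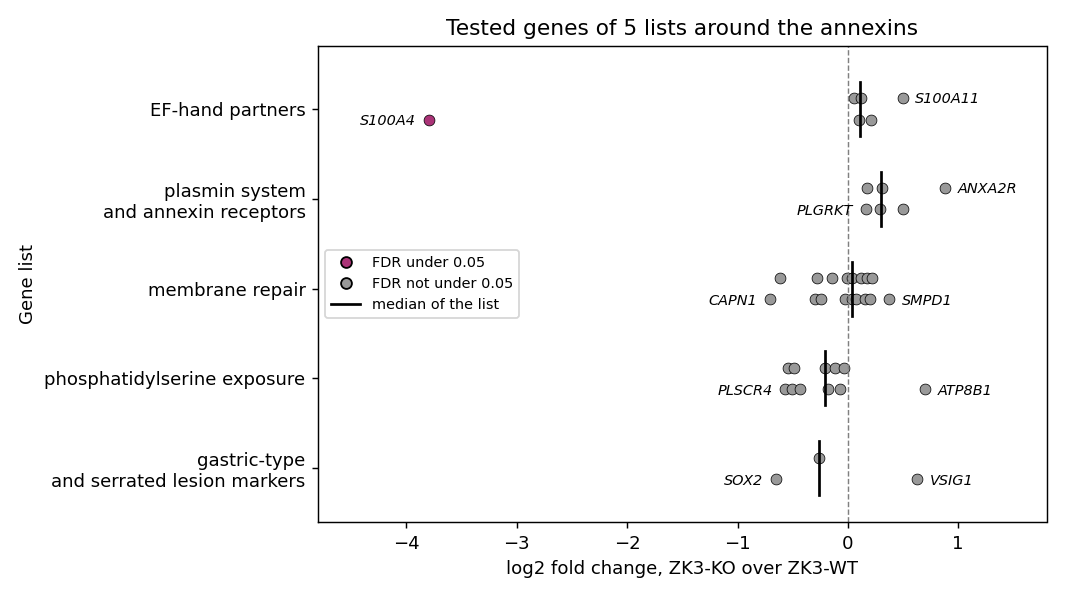
Fitted log2 fold changes (*ZK3*-KO over *ZK3*-WT, edgeR, 6 libraries) of the tested genes of 5 lists. Each point is a gene, black bars are list medians, and the genes at both ends of each list are named. *S100A4* at -3.80 is the point below an FDR of 0.05, and the other genes lie between -0.71 and 0.88.

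The genes around *ANXA10* on chromosome 4 were compared to describe where its difference sat. Within 1 Mb on either side, 6 genes were tested and 2 passed, both higher in *ZK3*-KO cells, beside 0.817% of all tested genes called higher. Groups did not overlap for 5 of the 6, beside 26.6%. *SPOCK3*, which encodes a testican proteoglycan, starts the window, with a gap of -858 kb to *ANXA10* (negative gaps lie before it). It was at 0.954, 0.956 and 0.615 CPM in *ZK3*-WT and 4.63, 5.19 and 2.48 CPM in *ZK3*-KO libraries (log2 fold change 2.28, SE 0.37, FDR 0.0283). *PALLD*, which encodes the actin crosslinker palladin, lies 309 kb after it. It was at 117, 108 and 106 CPM in *ZK3*-WT and 469, 533 and 212 CPM in *ZK3*-KO libraries (log2 fold change 1.87, SE 0.33, FDR 0.0375). In both genes *ZK3*-KO replicate 3 was the lowest *ZK3*-KO library, and still above every parental library.

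From *ANXA10* toward *PALLD*, the fitted values of *DDX60* and *DDX60L* were below 0, and neither gene passed with all libraries. *DDX60*, an RNA helicase gene of antiviral defence and the nearest tested gene at 28.6 kb, was at 19.2, 16.0 and 14.8 CPM in *ZK3*-WT and 11.5, 9.23 and 5.21 CPM in *ZK3*-KO libraries. Its log2 fold change of -0.95 (SE 0.29) had an FDR of 0.156. Its neighbour *DDX60L*, at 169 kb, was at -0.40 (FDR 0.296). *CBR4* and *SH3RF1* complete the window at -0.12 (FDR 0.786) and -0.43 (FDR 0.175). The spans of *DDX60L* and *CBR4* overlap that of *PALLD* on the opposite strand, so their reads and those of *PALLD* may not be separated. Farther out, *TLL1*, a tolloid-like metalloprotease gene with a gap of -1988 kb, was at 0.763, 0.742 and 0.658 CPM in *ZK3*-WT and 1.68, 1.95 and 0.842 CPM in *ZK3*-KO libraries (log2 fold change 1.05, FDR 0.201), and *CPE* at -2594 kb was at -0.06 (FDR 0.937). The median over 563 tested genes of chromosome 4 was -0.03. The calls of *SPOCK3* and *PALLD* were both lost when *ZK3*-WT replicate 1, 2 or 3 or *ZK3*-KO replicate 1 or 2 was left out, which left between 49 and 158 calls over all genes. Without *ZK3*-KO replicate 3, 3 of the 6 genes of the window passed, beside 15.1% of all tested genes in that fit. These were *SPOCK3* at 2.55 (FDR 0.00123), *PALLD* at 2.19 (FDR 6.66e-05) and *DDX60* at -0.68 (FDR 0.0393). Outside the window *TLL1* passed at 1.33 (FDR 0.0180).

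**Figure D5:**
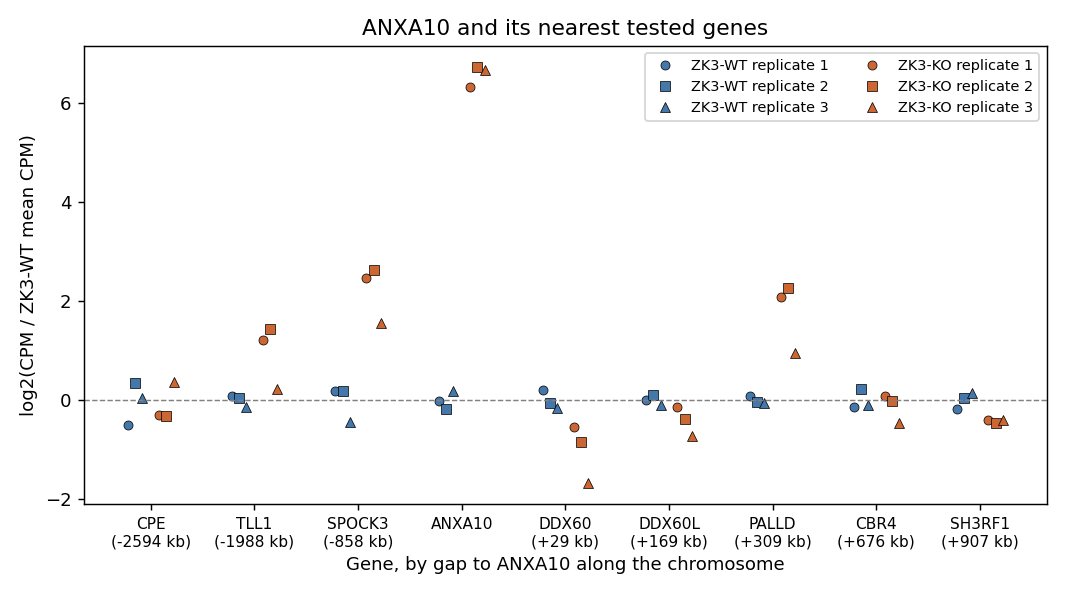
CPM in each library relative to the *ZK3*-WT mean of the same gene, on a log2 scale, for *ANXA10* and the tested genes around it, ordered by their gap to *ANXA10* in kb (not to scale). Points are libraries. The *ZK3*-KO libraries of *SPOCK3*, *ANXA10* and *PALLD* lie above all parental libraries, and those of *DDX60* and *DDX60L* below them.

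Among tested genes whose average log2 CPM reached 1, those whose log2 CPM was most like that of *ANXA10* over the 6 libraries were *COX16* (Pearson r 0.997), *CCDC115* (0.997), *HIGD1A* (0.996), *ATP6V1D* (0.996) and *SYN2* (0.995). The points of these correlations share the 6 libraries and their 2 genotypes. Any gene that was higher in *ZK3*-KO cells and had little spread within each genotype therefore ranks high. *COX16*, a cytochrome oxidase assembly factor gene, was at 18.2, 17.9 and 17.0 CPM in *ZK3*-WT and 44.02, 44.7 and 44.2 CPM in *ZK3*-KO libraries. *COX16* and *ATP6V1D*, a subunit gene of the vacuolar proton pump, are on chromosome 14, where the median log2 fold change over 502 tested genes was 0.52. Their own log2 fold changes were 1.32 and 0.92, well below the 6.57 of *ANXA10*, and those of *CCDC115*, *HIGD1A* and *SYN2* were 0.53, 0.65 and 0.68. Among the annexins, r with *ANXA10* over the same libraries was lowest for *ANXA4* (-0.925) and *ANXA2* (-0.917), and highest for *ANXA7* (0.777). These r likewise reflect how each gene differed between the genotypes and its spread within them.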

How the data were processed

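Parental HCT116 (*ZK3*-WT) and *ZK3*-KO libraries (3 each) were grouped by their genotype labels, and each column of the table was assigned by the sample descriptions. The authors deposited unnormalized read counts per gene, FPKM (per kb of transcript and library total) and TPM (length-scaled to a like sum per library). The submitters' processing notes name Bowtie2 2.2.5, hg19 and GRCh37. The methods name Partek Flow, an Ensembl annotation and an ANOVA on TPM, whereas the table lists NCBI Gene identifiers. Gene-level counts cannot separate isoforms or near-identical copies.

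The counts entered edgeR 4.0.16 under R 4.3.3, with filterByExpr, TMM factors (0.910 to 1.03), the quasi-likelihood test with genotype as the factor, and Benjamini-Hochberg adjustment (FDR) over 18366 genes at a threshold of 0.05. The deposited TPM were used for levels between genes and in an alternative, and the deposited FPKM for the implied length. Positions came from a GRCh37 annotation and promoter windows from RefSeq. The alternatives were DESeq2 1.42.0, library totals, upper-quartile factors, genes with at least 1 read, a mean CPM of at least 1, limma 3.58.1 on log2(TPM + 1) and on log2(CPM + 1) (pseudocount 1), the replicate number as a block, and each library left out. Scripts were tested on simulated counts. No library was a copy of another.

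Deviations from the genotype means correlated across genes at 0.294, 0.112 and 0.449 between libraries sharing number 1, 2 or 3 (different numbers -0.343 to 0.209). A pairing by number would be inferred from these data alone, since the labels do not say what a number marks. It did not hold for every number, as *ZK3*-KO replicate 2 correlated more with *ZK3*-WT replicate 1 (0.209) than with *ZK3*-WT replicate 2 (0.112). The members and lists were chosen with earlier results of these data known. The text names every member, other annexins with reads, list genes past the threshold or at the ends of a range, the 3 nearest tested genes on each side of *ANXA10* and called genes within 1 Mb, *ZKSCAN3*, and the 5 genes most like *ANXA10*. Genes with 0 or few reads and genes that pass only without *ZK3*-KO replicate 3 were named after their values were seen. Of the list of the plasmin system and receptors, 1 gene is not reported here. Annexin protein sequences were not analysed here.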

Additional observations from a re-analysis of the deposited data

How the results depend on the processing

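The counts of genes past an FDR of 0.05 depended most on the libraries included. Over all genes, 376 passed (150 higher and 226 lower in *ZK3*-KO), 1506 in DESeq2, and between 49 and 2858 with each library left out in turn, the highest without *ZK3*-KO replicate 3. Library totals gave 111 higher and 258 lower, and limma on log2(TPM + 1) gave 88 higher and 294 lower. Of the 9 annexins other than *ANXA10*, 0 passed with all libraries, 1 in DESeq2, and between 0 and 2 with each library left out. In the same leave-one-out fits the counts ranged from 1 to 2 for EF-hand partners, from 0 to 3 for membrane repair (2 in DESeq2), from 0 to 1 for phosphatidylserine exposure and from 0 to 3 for the genes within 1 Mb of *ANXA10*. For the last, library totals gave 1 and limma on log2(TPM + 1) gave 0. The cause of these changes was not tested. With the replicate number as a block 461 genes passed, and the block changed no call of an annexin. The log2 fold change of *ANXA10* was 4.94 in limma on log2(TPM + 1) and 4.68 in limma on log2(CPM + 1), where the pseudocount of 1 is above its parental level. *ANXA1* ranged from -0.23 (reversed, without *ZK3*-KO replicate 3) to 0.47 with each library left out, and the other 9 members kept their sign in all 14 alternatives. The order of parental levels was the same for 10 of 10 members with CPM per implied length in place of TPM. That length was derived from the deposited FPKM, so this sameness was largely fixed in advance and is no check of the order. At 22 to 28 reads per parental library, *ANXA10* was counted with low precision there.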

Other observations

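*ZK3*-KO replicate 3 set the highest value of several genes that act with annexins, and these were named after their values were seen. *PLAU*, the urokinase-type plasminogen activator, was at 60.6, 113 and 136 CPM in *ZK3*-WT and 52.3, 54.8 and 330 CPM in *ZK3*-KO libraries. *PLAUR*, its receptor, was at 38.7, 29.9 and 44.4 CPM and at 32.9, 19.4 and 86.0 CPM. *S100A6* was at 435, 342 and 458 CPM and at 276, 245 and 764 CPM, and *DYSF* at 4.41, 4.565 and 5.91 CPM and at 1.32, 1.27 and 9.52 CPM. In each of these 4 genes *ZK3*-KO replicates 1 and 2 were below all parental libraries or, for *PLAUR*, replicate 2 alone was, while replicate 3 was above all of them.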
